A study of Mus musculus with 36 samples.

Results

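The 39 cell cycle and DNA replication genes described here were chosen by name, with earlier results of these data known. They were matched by symbol to the 55414 gene identifiers of the deposited count tables, and all 39 were found. They hold 17 genes of DNA synthesis and its start, called the S-phase members, and 22 genes of chromosome segregation and division, called the mitotic members. They were followed over 36 bulk RNA libraries in 9 groups of 4, and over the 12 mice that gave leukaemia cells from both marrow and central nervous system. The leukaemia groups came from mice at terminal mixed-lineage leukaemia that carried the fusion Kmt2a-AFF1 and overexpressed a microRNA, given as miR-130b in the sample labels and as miR-130a in the series' design text. Each of the 12 mice gave 1 library from bone marrow (BM) and 1 from the central nervous system (CNS), both of a single sorted cell type. The 4 control mice carried the same fusion with miR-scramble, had no leukaemia and each gave all 3 cell types from BM, so every group here carries Kmt2a-AFF1 and no group lacks it. The sorted populations were HSC/MPP (haematopoietic stem cells with multipotent progenitors: Lin-, c-Kit+, Sca-1+, Flt3-), LMPP (lymphoid-primed progenitors: Lin-, c-Kit+, Sca-1+, Flt3+) and LK/CLP (Lin-, c-Kit+, Sca-1-). The labels do not state the strain, the age, the sex or what drives the fusion. The labels give the leukaemia and control arms different microRNAs and different mice, so disease and microRNA cannot be told apart.

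Dividing cells copy their DNA in S phase and separate the copies in mitosis. Before S phase, Cdc6 and Cdt1 load the ring of Mcm2 to Mcm7 onto origins of replication. Cdc45 and the GINS complex then turn the ring into an active helicase, Pcna holds the polymerases on the template, and Rrm1, Rrm2 and Tyms supply nucleotides. The factor E2f1 and the cyclins E, Ccne1 and Ccne2, act at entry into this phase. Transcription of many of these genes depends on E2F factors bound near their starts. Genes of the later phases, such as the mitotic cyclins and motors, are known to be controlled through CHR and CCAAT elements by the DREAM and MuvB complexes with Foxm1 and B-Myb, and by the CCAAT-binding factor NF-Y. In marrow most long-term stem cells rest outside the cycle, while more committed progenitors divide often.

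Promoter sequences are shown for 4 S-phase and 4 mitotic members, because the groups are set apart by phase throughout and the letters of the E2F, CHR and CCAAT elements differ between them. The 250 bases before the annotated start are printed 5′ to 3′ on the gene's strand, from RefSeq on GRCm38.p6, with capitals for letters of the 3 elements on either strand. As E2F letters counted the run TTCCCGC, the run TTGGCGC, the run TTCGCGC and the run TTGCCGC. As CHR letters counted the run TTTGAA and the run TTCGAA, and as the CCAAT box CCAAT itself. Of the S-phase members, Rrm2 lies at chr12:24708004-24708253 (plus strand), Ccne1 at chr7:38107491-38107740 (minus strand), Cdc6 at chr11:98907901-98908150 (plus strand) and Mcm6 at chr1:128359706-128359955 (minus strand). Of the mitotic members, Kif11 lies at chr19:37376132-37376381 (plus strand), Ccnb2 at chr9:70421555-70421804 (minus strand), Top2a at chr11:99024190-99024439 (minus strand) and Cdk1 at chr10:69352913-69353162 (minus strand). Mcm6 and Cdk1 were chosen after their letters were seen, the other 6 because the results below turn on them.
Rrm2: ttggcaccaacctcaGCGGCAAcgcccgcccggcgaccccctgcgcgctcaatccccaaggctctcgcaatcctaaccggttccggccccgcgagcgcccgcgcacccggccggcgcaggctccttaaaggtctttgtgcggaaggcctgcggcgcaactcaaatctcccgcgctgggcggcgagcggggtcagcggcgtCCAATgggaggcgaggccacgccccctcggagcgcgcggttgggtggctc
Ccne1: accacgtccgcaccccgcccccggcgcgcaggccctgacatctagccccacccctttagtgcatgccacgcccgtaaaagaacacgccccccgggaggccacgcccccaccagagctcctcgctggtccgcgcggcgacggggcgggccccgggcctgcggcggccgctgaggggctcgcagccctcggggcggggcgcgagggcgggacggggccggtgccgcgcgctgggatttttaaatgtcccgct
Cdc6: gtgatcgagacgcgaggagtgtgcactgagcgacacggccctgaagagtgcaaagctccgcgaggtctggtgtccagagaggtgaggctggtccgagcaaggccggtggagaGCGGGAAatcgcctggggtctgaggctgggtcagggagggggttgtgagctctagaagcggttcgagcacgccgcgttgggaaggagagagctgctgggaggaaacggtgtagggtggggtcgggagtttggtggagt
Mcm6: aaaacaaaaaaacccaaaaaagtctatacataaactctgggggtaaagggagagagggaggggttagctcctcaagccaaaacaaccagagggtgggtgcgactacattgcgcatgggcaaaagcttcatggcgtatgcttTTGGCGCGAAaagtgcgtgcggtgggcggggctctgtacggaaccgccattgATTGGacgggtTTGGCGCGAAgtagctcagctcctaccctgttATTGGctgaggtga
Kif11: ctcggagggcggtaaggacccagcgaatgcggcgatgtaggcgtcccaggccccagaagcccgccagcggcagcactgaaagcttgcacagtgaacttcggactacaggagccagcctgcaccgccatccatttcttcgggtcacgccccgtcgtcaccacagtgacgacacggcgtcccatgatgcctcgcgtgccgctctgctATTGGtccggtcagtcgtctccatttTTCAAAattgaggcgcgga
Ccnb2: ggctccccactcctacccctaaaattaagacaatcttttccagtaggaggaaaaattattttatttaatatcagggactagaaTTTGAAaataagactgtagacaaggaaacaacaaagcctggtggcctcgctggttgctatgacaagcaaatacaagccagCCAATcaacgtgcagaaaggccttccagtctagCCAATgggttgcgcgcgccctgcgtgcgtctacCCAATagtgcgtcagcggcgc
Top2a: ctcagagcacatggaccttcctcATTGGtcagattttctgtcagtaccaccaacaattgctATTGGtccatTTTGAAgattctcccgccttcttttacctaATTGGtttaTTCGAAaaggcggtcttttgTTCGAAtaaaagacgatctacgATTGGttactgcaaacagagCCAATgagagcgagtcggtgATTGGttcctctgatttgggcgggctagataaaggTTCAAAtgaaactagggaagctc
Cdk1: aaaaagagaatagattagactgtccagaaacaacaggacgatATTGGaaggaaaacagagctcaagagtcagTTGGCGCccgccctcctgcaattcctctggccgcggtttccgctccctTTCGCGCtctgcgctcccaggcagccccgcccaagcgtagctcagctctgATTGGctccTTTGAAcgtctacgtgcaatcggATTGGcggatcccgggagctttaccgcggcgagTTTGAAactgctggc

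In these stretches Rrm2 holds E2F letters at -235 and CCAAT at -50 from its start, and Cdc6 holds E2F letters at -138. Kif11 holds CHR letters at -19 and CCAAT at -45. Mcm6 carries overlapping E2F letters in a pair of stretches that start at -109 and -46, both TTGGCGCGAA. Ccnb2 holds CCAAT at -87, -54 and -21 with CHR letters at -167, and Top2a holds CCAAT and CHR letters several times over. Cdk1 carries all 3 kinds. Ccne1 has none of the searched letters in this window. RefSeq windows of 300 bases, 250 before and 50 after the start, were held for 31 of 39 members, 32 windows in all because Mcm7 has a pair of starts. E2F letters stood in 9 of 15 S-phase windows (60.0%), in 3 of 17 mitotic windows (17.6%) and in 9.57% of all 32851 promoter windows. CHR letters stood in 3 of 15 S-phase windows (20%), in 14 of 17 mitotic windows (82.4%) and in 19.2% of all windows. CCAAT was common to both groups, at 66.7% of S-phase and 88.2% of mitotic windows against 37.4% of all. CHR letters together with CCAAT stood in 3 S-phase windows, in 13 mitotic windows (76.5%) and in 7.52% of all windows. A match is a description of letters and not a measured site.

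Counts per library ran from 1909638 to 30442297 in the leukaemia groups and from 3550349 to 21575930 in the controls, and the lowest count of any member in any library was 9. A background taken as uniform per base of exon was estimated from 1794 sensory receptor genes. By this estimate it made up 21.8 to 27.9% of counts in HSC/MPP of the controls, 14.2 to 27.2% in their LMPP and 6.57 to 12.5% in their LK/CLP. In the leukaemia libraries it made up 0.461 to 26.8%. Whether the rate is uniform was not tested, and in control HSC/MPP it exceeded the counts of Ccne2 (144%), Gins2 (111%) and Bub1 (107%). The library of lowest total was the third BM LMPP library, and the first CNS HSC/MPP library held the most macrophage transcripts, so results are also given without both mice where that changes them. The sort genes followed their gates in mean level. Ly6a, which encodes Sca-1, stood at 16.6 to 41.0 scaled CPM over the HSC/MPP and LMPP groups and at 2.5 to 3.1 in the LK/CLP groups. Flt3 stood at 269.5 scaled CPM in LMPP of the controls, against 38.1 in their HSC/MPP and 41.1 in their LK/CLP, and at 296.7 in leukaemia BM LK/CLP, for whose gate Flt3 was not used.

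Levels are given as scaled CPM, the usual CPM with each library scaled over 17113 genes counted above background. This scale is common to all 36 libraries, while each fit scales over its own libraries, so levels and folds can differ in size. Fold changes are log2 values with their standard error. Tests are edgeR quasi-likelihood tests with an adjusted p under 0.05 called. The test over all counted genes was the principal one. In several comparisons it moved the median of the genes above background by far more than 0.1. Each fold change is therefore given from a second fit restricted to genes above background, in which that median stayed within 0.04 of 0, and the principal call stands beside it. Because these are bulk libraries, fewer dividing cells and less RNA per cell cannot be told apart.

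**Figure D1:**
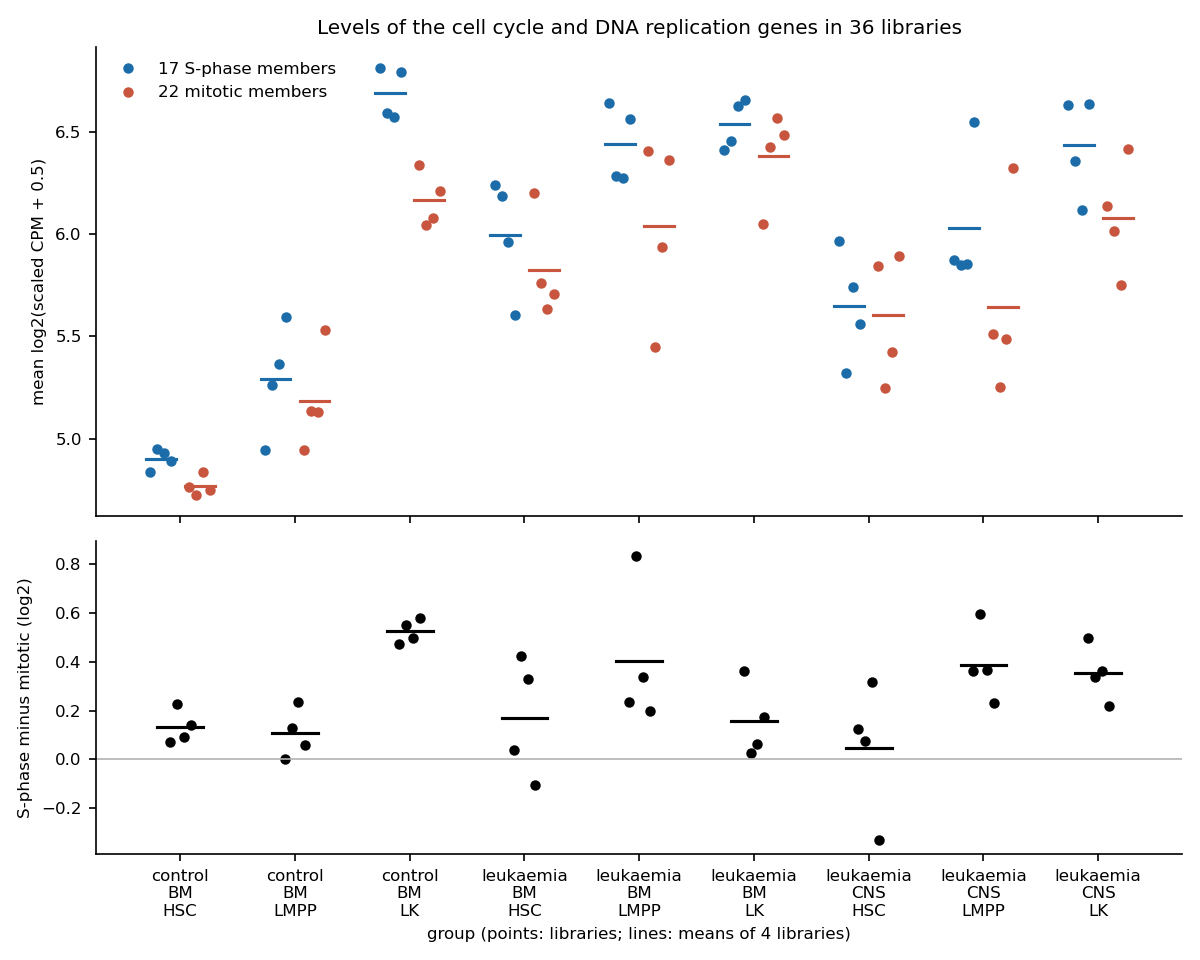
The upper panel plots, for each of the 36 libraries, the mean log2(scaled CPM + 0.5) of the 17 S-phase members (blue) and of the 22 mitotic members (red) by group, and the lower panel their difference (HSC stands for HSC/MPP and LK for LK/CLP; lines are means of 4 libraries). Control HSC/MPP has the lowest group mean in both, control LK/CLP has the highest for the S-phase members, and leukaemia BM LK/CLP the highest for the mitotic members.

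The levels of the members set control LK/CLP far above control HSC/MPP and LMPP, which lay closer together. The mean log2 level of the S-phase members was 4.90 ± 0.05 (SD, n = 4) for HSC/MPP of the controls, 5.29 ± 0.27 for their LMPP and 6.69 ± 0.13 for their LK/CLP. The mitotic members stood at 4.77 ± 0.05, 5.18 ± 0.25 and 6.17 ± 0.13 in the same order. Among the leukaemia groups the S-phase mean ran from 5.65 ± 0.27 in CNS HSC/MPP to 6.54 ± 0.12 in BM LK/CLP, and the mitotic mean from 5.60 ± 0.32 to 6.38 ± 0.23 in the same groups. The S-phase means of all 6 leukaemia groups lay between those of control LMPP and control LK/CLP, whereas the mitotic mean of leukaemia BM LK/CLP lay above every control group. Within each of the 3 leukaemia cell types, the BM and CNS libraries overlapped in both means. Compared per kb of exon in control LK/CLP, Mki67, the proliferation antigen Ki-67, had the highest mean at 99.6 scaled CPM per kb, followed by Mcm6 at 85.2 and Mcm3 at 81.4. Gins2, a GINS subunit, was lowest at 5.61, with Ccne2 at 5.85.

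The first comparison asks how the members differ between cell types of non-leukaemic marrow. Members were lower in HSC/MPP than in LK/CLP by more than the spread between mice, S-phase members by a median of 1.54 on the log2 scale and mitotic members by a median of 1.01. The principal test called 39 of 39 members lower, against 25.0% of its 41609 genes. Scaling over all counted genes of the 36 libraries gave factors of 2.33 to 2.52 for control HSC/MPP and 0.784 to 1.22 for control LK/CLP. Factors so far apart lower the folds of expressed genes, so the principal count depends on the scaling. In the fit over genes above background 35 members were called lower (16 S-phase and 19 mitotic), against 33.7% of 11030 genes, and none higher. All 39 members entered that fit through LK/CLP, where each was above background in all 4 libraries, while only 8 were so in HSC/MPP. Members that were low in HSC/MPP could enter it in no other way, so its counts are a description. The 31 remaining members are partly background in HSC/MPP, where background made up a median of 37.9% of the members' counts. Scaled levels of 38 members were lower in every HSC/MPP than in every LK/CLP library, against 31.6% of genes. On the scale of these levels the medians were -1.95 for the S-phase and -1.41 for the mitotic members. These are larger drops than in the fit over genes above background, so the levels and the count of 38 depend on the scale.

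Rrm2, the regulated subunit of ribonucleotide reductase, stood at 14.0, 14.7, 15.2 and 15.4 scaled CPM in the control HSC/MPP libraries and at 97.4, 73.6, 91.6 and 109 in control LK/CLP. Its log2 fold change was -2.23 ± 0.15 (adjusted p = 2.94e-09), and the lowest LK/CLP library was well above the highest HSC/MPP library. Ccne1, which activates Cdk2 at entry into S phase, stood at 11.0, 11.9, 15.4 and 14.6 against 39.1, 32.3, 32.2 and 46.6. It fell by 1.09 ± 0.17 (adjusted p = 1.95e-05), again with no overlap between the groups. Of the mitotic members, Bub1, a kinase of the spindle checkpoint, stood at 12.1, 9.55, 7.10 and 11.4 in HSC/MPP and at 34.3, 26.8, 33.9 and 38.1 in LK/CLP. Its fold change was -1.32 ± 0.17 (adjusted p = 2.77e-06), although its HSC/MPP counts were no more than the background for its length. Ccnb2, a mitotic cyclin, stood at 13.8, 13.6, 11.4 and 8.68 against 58.5, 42.0, 46.7 and 53.6 (-1.61 ± 0.16, adjusted p = 1.73e-07).

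The largest folds besides Rrm2 belonged to the helicase, to Mki67 and to topoisomerase Top2a. Mcm4 differed by -2.17 ± 0.19, Mcm6 by -1.90 ± 0.19, Mcm5 by -1.88 ± 0.14 and Mcm7 by -1.77 ± 0.14, while the clamp Pcna differed by -1.81 ± 0.18. Mki67 averaged 172 scaled CPM in HSC/MPP and 1002 in LK/CLP (-2.11 ± 0.24, adjusted p = 5.43e-07). Top2a, which untangles DNA before division, averaged 82.8 and 413 (-1.89 ± 0.17). Ccna2, the cyclin of S phase and G2, differed by -1.61 ± 0.17. These members were above background in HSC/MPP in 4 of 4 libraries for Mki67, Top2a, Pcna, Mcm5, Mcm6 and Mcm7, and in 2 of 4 for Mcm4. Ccna2 was above background in 0 of 4, with 49.0% of its HSC/MPP counts at the background level. Kif11, the motor that pushes the spindle poles apart, stood at 30.6, 32.9, 37.8 and 23.7 in HSC/MPP and at 135, 112, 117 and 123 in LK/CLP (-1.52 ± 0.17, adjusted p = 4.54e-07). Background made up 55.8% of the HSC/MPP counts of Kif11, 45.8% of those of Rrm2 and 50.1% of those of Ccne1, each above background in 0 of 4 libraries.

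The 4 members that the second fit did not call were Tyms (-0.28 ± 0.16), the centromeric histone Cenpa (-0.26 ± 0.16), the transcription factor Foxm1 (-0.20 ± 0.11, adjusted p = 0.106) and the microtubule depolymerase Kif2c (0.30 ± 0.13, adjusted p = 0.0506). Kif2c is the member whose direction turned between the fits, at -1.36 in the principal test. Its mean scaled level was 37.5 in HSC/MPP and 41.0 in LK/CLP. Cdk1, whose product drives entry into mitosis, moved little for a mitotic member, by -0.44 ± 0.13 (adjusted p = 0.00559). Erythroid markers, a class that LK/CLP gates can hold, summed to 984 to 1424 scaled CPM in control LK/CLP, with 12 of 13 above background in all 4 libraries, and to 252 to 305 in control HSC/MPP. None of the 13 was at 0 in either group. Their part in the difference was not tested.

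LMPP also lay below LK/CLP, the same 4 libraries as above, by a median of 1.18 over the S-phase and 0.72 over the mitotic members. In the principal test 39 members were lower, against 24.5% of genes, and the fit over genes above background called 33 lower (16 S-phase and 17 mitotic), against 31.5%. Scaling over all counted genes gave factors of 1.33 to 2.52 for control LMPP, so the principal count again depends on the scaling. Only 10 members were above background in all 4 LMPP libraries, so the counts of the second fit are a description. In scaled level 35 members did not overlap, against 26.3% of genes. The scaled levels again gave larger drops than the fit, with medians of -1.55 and -1.06. Rrm2 stood at 19.2, 19.7, 21.96 and 33.0 scaled CPM in LMPP, all below LK/CLP (-1.64 ± 0.14, adjusted p = 4.08e-08). Ccne1 stood at 13.6, 11.9, 12.4 and 10.9 (-1.27 ± 0.17, adjusted p = 5.04e-06), with no LMPP library near the LK/CLP range. Ccna2 stood at 17.4, 22.6, 21.3 and 38.9 in LMPP and at 93.2, 73.4, 74.6 and 91.4 in LK/CLP (-1.39 ± 0.16, adjusted p = 9.34e-07). Ccnb2 stood at 15.2, 15.0, 20.2 and 26.5 (-1.04 ± 0.15, adjusted p = 1.48e-05), and Kif11 at 33.3, 52.3, 65.5 and 82.8 (-0.72 ± 0.16, adjusted p = 0.000756). Kif11 varied more among LMPP mice than any of these, and its highest LMPP library still lay below the lowest LK/CLP library. Other large folds were Mcm5 at -1.47, Mcm2 at -1.41, Mcm3 at -1.37, Mcm7 at -1.34, Mcm4 at -1.28, Mcm6 at -1.21 and Mki67 at -1.20, each with an SE from 0.13 to 0.24.

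Between HSC/MPP and LMPP of control marrow the members lay closer. The principal test called 0 members (20 at an unadjusted p under 0.05) and 0.183% of 41609 genes, and DESeq2 called 3 members, against 0.281% of genes. The fit over genes above background called 7 members lower in HSC/MPP, against 1.70% of genes. They were Top2a (-0.98 ± 0.17, adjusted p = 0.0039), Bub1 (-0.89 ± 0.18, adjusted p = 0.0147), Mcm4 (-0.89 ± 0.19, adjusted p = 0.0216), Kif11 (-0.79 ± 0.17, adjusted p = 0.0227), Pcna (-0.76 ± 0.18), Mki67 (-0.91 ± 0.23) and the spindle factor Tpx2 (-0.45 ± 0.12). Top2a, Pcna and Mki67 were above background in all 4 libraries of both groups. Mcm4 was so in 2 HSC/MPP and 3 LMPP libraries, Tpx2 in 2 and 4, Bub1 in 0 and 1, and Kif11 in 0 and 2. Bub1 and Kif11 entered this fit only through LK/CLP, so their calls are a description. Background made up 107% of the HSC/MPP counts of Bub1 and 55.8% of those of Kif11. With the mouse as a block, Top2a (adjusted p = 0.0164), Bub1 (0.0349) and Mcm4 (0.0411) were called, against 0.635% of genes. Top2a stood at 85.9, 83.2, 83.5 and 78.5 scaled CPM in HSC/MPP and at 106, 152, 192 and 248 in LMPP. The HSC/MPP libraries were close together and the LMPP libraries were spread, with no overlap, as for 9 members against 3.06% of genes. Of the 7 calls over genes above background, 2 were left without any 1 of the HSC/MPP libraries or the third LMPP library and 3 without the fourth, while 16 members were called without the first LMPP library. In the principal test 6 were called without the first LMPP library and 1 without the first or the third LK/CLP library.

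The S-phase and the mitotic members had different median folds between the control cell types, described here without a test. From LK/CLP to HSC/MPP in control marrow the S-phase median fold was lower than the mitotic one by 0.52 in the principal test and by 0.53 over genes above background. From LK/CLP to LMPP it was lower by 0.45 and 0.46. Within libraries, the S-phase mean exceeded the mitotic mean by 0.47 to 0.58 in the 4 control LK/CLP libraries, by 0.07 to 0.23 in HSC/MPP and by 0.00 to 0.24 in LMPP. LK/CLP did not overlap the other types. After the background was subtracted from each count, the difference between HSC/MPP and LK/CLP was -0.29.

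**Figure D2:**
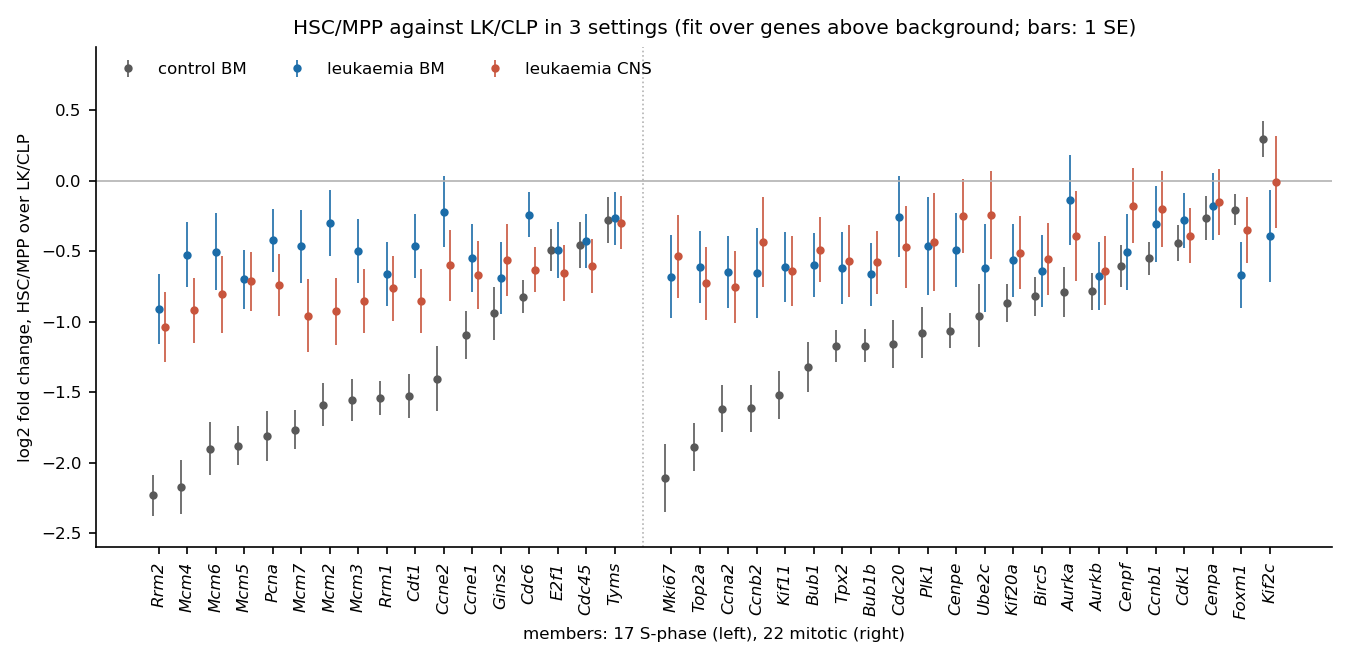
Each point is a member's log2 fold change of HSC/MPP over LK/CLP in the fit over genes above background, with a bar of 1 SE, in control BM (grey), leukaemia BM (blue) and leukaemia CNS (red). Control folds reach -2.23 for Rrm2 and lie at 0.30 for Kif2c, while the leukaemia folds lie between -1.04 and -0.01 for all members.

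Other genes of the pathway, from lists written with earlier results known, were mostly lower in control HSC/MPP than in LK/CLP. Over genes above background, 21 of 29 tested genes of a 30-gene list of other replication genes were lower and 1 higher (median -0.68), against 33.7% of all genes called lower in this fit, led by the dUTPase Dut at -2.21 ± 0.15 and the methylation reader Uhrf1 at -1.82 ± 0.16. Of 33 other mitotic genes, 32 were tested, 21 were lower and 2 higher (median -0.61), led by Cks2 (-2.33 ± 0.16), the condensin subunit Smc2 (-2.12 ± 0.18) and the kinetochore protein Knl1 (-1.78 ± 0.15). The median fold over all genes there was 0.03. In all 4 HSC/MPP libraries only 3 genes of each of these lists were above background, against 29 and 32 in LK/CLP. The tested genes entered this fit mostly through LK/CLP, so the counts are a description. Of 9 G1 cyclins, kinases and related genes, 4 were lower and 3 higher, with Cdk6 at -1.96 ± 0.23 and Mycn at 2.18 ± 0.24. Of 13 E2F and pocket protein genes, 10 were tested, 6 were lower and 1 higher, led by Tfdp1 at -1.86 ± 0.15 and E2f4 at -1.77 ± 0.15. Of these 13, only 2 were above background in all 4 HSC/MPP libraries, against 10 in LK/CLP. Only 3 of 7 inhibitors of cyclin-dependent kinases were tested, of which Cdkn2d was higher (0.76 ± 0.25, adjusted p = 0.0103). Directions on the higher side held over genes above background only: the principal test placed Cdkn2d at -0.90 and left Mycn uncalled at 0.53.

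The next comparison sets leukaemia against control marrow for each cell type, across different mice and separately deposited tables of counts. Leukaemia HSC/MPP had higher levels of most members than control HSC/MPP, by a median of 1.14 over the S-phase and 0.99 over the mitotic members. All but Kif2c, 38 members, were called higher in the principal test, against 20.3% of genes. In the second fit 32 were called higher (14 S-phase and 18 mitotic), against 27.5% of 15154 genes, and none lower. Members above background in all 4 libraries numbered 31 in leukaemia HSC/MPP, only 8 in control HSC/MPP and 39 in LK/CLP of either arm. Many could therefore enter that fit only through groups where they were high, so its counts are a description. Scaled levels of 31 members were above the control range in every leukaemia library, against 18.9% of genes. Mature neutrophil markers summed to 480 to 1493 scaled CPM in leukaemia BM HSC/MPP (6 of 10 above background in all 4 libraries) and to 124 to 153 in control (1 of 10), with none at 0 in either group. Their part in the difference was not tested.

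In leukaemia BM HSC/MPP Rrm2 stood at 66.4, 57.4, 43.5 and 44.9 scaled CPM, against 14.0 to 15.4 in control HSC/MPP (1.73 ± 0.21, adjusted p = 2.62e-06). Mcm4 stood at 135, 122, 112 and 61.5 against 26.8, 39.2, 30.0 and 27.6 in control HSC/MPP (1.67 ± 0.23, adjusted p = 7.84e-06). Kif11 stood at 160, 122, 133 and 81.2 against 30.6, 32.9, 37.8 and 23.7 (1.86 ± 0.22, adjusted p = 2.15e-06). The fourth leukaemia library was lowest for Mcm4 and Kif11 and also had the highest background share, 26.8%, yet none of the control libraries reached it. Top2a stood at 481, 418, 295 and 244 against 78.5 to 85.9 (2.00 ± 0.23, adjusted p = 1.32e-06). Mki67 had the largest fold, from a mean of 172 to 863 (2.20 ± 0.30, adjusted p = 8.67e-06), and Mcm6, Pcna, Ccnb2, Mcm7 and Ccne2 followed at 1.62, 1.52, 1.47, 1.44 and 1.39. Ccne1 did not share this rise, with control libraries at 11.0 to 15.4 and leukaemia libraries at 16.3, 10.2, 14.0 and 14.7. Its fold was -0.04 ± 0.22 (adjusted p = 0.888) over genes above background, whereas the principal test called it higher at 1.15, close to the shift of 1.04 of the median gene above background there.

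In LMPP the principal test called 39 members higher, against 26.0% of genes, with the median gene above background shifted by 1.51. Over genes above background 29 were higher (14 S-phase and 15 mitotic), against 32.6%, and none lower. Here 38 members were above background in all 4 leukaemia LMPP libraries and 10 in control LMPP, so these counts are again a description. Rrm2 stood at 101, 85.0, 52.4 and 110 scaled CPM in leukaemia LMPP against 19.2 to 33.0 in control LMPP (1.77 ± 0.21, adjusted p = 1.07e-06). E2f1 stood at 61.1, 54.2, 42.1 and 58.7 against 20.4, 24.1, 29.6 and 21.5 (1.05 ± 0.17, adjusted p = 2.36e-05). Scaled levels of 24 members were above the control range in every leukaemia library, against 27.2% of genes. Rrm2 and E2f1 were lowest in the third leukaemia library, which had the fewest counts, and still lay above every control library. Foxm1, which drives transcription of mitotic genes, stood at 99.0, 70.04, 93.8 and 101 against 33.7, 35.2, 37.8 and 46.2 (1.11 ± 0.17, adjusted p = 1.34e-05). Kif11 stood at 194, 130, 215 and 200 against 33.3 to 82.8 (1.52 ± 0.22, adjusted p = 9.10e-06), again without overlap. Further large folds were Mki67 at 1.65, Mcm5 at 1.44, Mcm3 at 1.41, Mcm7 at 1.35, Mcm6 and Top2a at 1.34, Ccna2 at 1.31 and Mcm4 at 1.17. Kif2c turned direction between fits, from 1.13 ± 0.35 called in the principal test to -0.55 ± 0.28 uncalled (adjusted p = 0.0875). The first leukaemia BM LMPP library held mature neutrophil markers at a sum of 4565 scaled CPM, against 12.3 to 37.9 in the other 7 leukaemia LMPP libraries, and 0 of 10 of these markers were above background in all 4 libraries of its group. Their part in the difference was not tested.

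In LK/CLP leukaemia and control marrow were close, with the medians of the 2 phases on either side of 0. They were -0.16 over the S-phase and 0.18 over the mitotic members. The principal test called 0 members (4 at an unadjusted p under 0.05), against 3.52% of genes, and DESeq2 called 2, against 8.22%. In the second fit 5 were called, against 17.2% of genes in either direction. Foxm1 rose (0.73 ± 0.16, adjusted p = 0.0027), as did Kif11 (0.64 ± 0.21, adjusted p = 0.039) and the kinetochore protein Cenpf (0.65 ± 0.22, adjusted p = 0.0428). Ccne1 fell (-0.88 ± 0.21, adjusted p = 0.00433), as did the origin licensing factor Cdc6 (-0.47 ± 0.13, adjusted p = 0.0134). This share, 5 of 39, is no larger than that of all genes. With the same replicate numbers as a block, 3 were called (Ccne1, Cdc6 and Foxm1), against 15.3% of genes, but leukaemia and control mice share only a number. Without leukaemia LK/CLP replicate 2, 3 or 4, or control LK/CLP replicate 1, 2 or 3, 3 were called, and 2 without control LK/CLP replicate 4. In the principal test 1 was called without BM HSC/MPP replicate 4, BM LMPP replicate 3 or BM LK/CLP replicate 1 of the leukaemia arm, or control LMPP replicate 4.

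Per library, Ccne1 stood at 18.9, 23.7, 18.9 and 21.1 scaled CPM in leukaemia BM LK/CLP and at 39.1, 32.3, 32.2 and 46.6 in control, without overlap. Foxm1 stood at 61.9, 76.4, 99.6 and 102 against 58.3, 51.6, 44.6 and 47.3, and Kif11 at 165, 199, 197 and 211 against 112 to 135, both higher in every leukaemia library. Cenpf stood at 157, 239, 202 and 204 against 132, 116, 124 and 130. Cdc6 stood at 46.9, 44.7, 50.1 and 53.8 against 60.5 to 74.4, so its groups did not overlap either. E2f1, which had the smallest p among the S-phase members in the principal test (fold 0.66, uncalled), stood at 48.3, 42.6, 61.4 and 62.7 against 45.3, 50.1, 38.1 and 41.8, and its groups overlapped. Scaled levels were above the control range in every library for 3 members, all mitotic, and below it for 5, all S-phase, against 13.4% and 12.2% of genes. Leukaemia BM LK/CLP held mature neutrophil markers at 617 to 12178 scaled CPM in sum (7 of 10 above background in all 4 libraries) and erythroid markers at 102 to 424, against 41.6 to 60.3 and 984 to 1424 in control. Whether these other cells contribute was not tested.

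Genes of the other lists were also compared between leukaemia and control marrow. In the second fit 20 of 30 other replication genes were higher in leukaemia HSC/MPP, 24 of 30 in LMPP, and none in LK/CLP, against 27.5% and 32.6% of all genes called higher in HSC/MPP and LMPP and 17.2% called in either direction in LK/CLP. In LK/CLP, Orc1 (-0.91 ± 0.25), Dut (-0.68 ± 0.17) and Chaf1b (-0.56 ± 0.19) were lower. Of 33 other mitotic genes, 21 were higher in HSC/MPP, 22 in LMPP with 2 lower, and 4 in LK/CLP, led by Nusap1 (0.92 ± 0.25) and Kif23 (0.86 ± 0.19). The 3 lower replication genes were not called in the principal test, whereas Nusap1 and Kif23 were. In control HSC/MPP only 3 replication and 3 mitotic genes of these lists were above background in all 4 libraries. In control LMPP 3 and 4 were so. The HSC/MPP and LMPP counts of these lists are therefore a description. Among the G1 genes Ccnd1, cyclin D1, was higher in LMPP (1.96 ± 0.24) and LK/CLP (2.37 ± 0.24, adjusted p = 2.90e-07), while Mycn was lower in all 3 types (-2.56, -3.12 and -2.17). The kinase inhibitors Cdkn2c (1.48 ± 0.29) and Cdkn2d (1.51 ± 0.29) were higher in leukaemia LK/CLP, 2 of 4 tested inhibitors of the 7 listed, and these LK/CLP calls of Ccnd1, Mycn, Cdkn2c and Cdkn2d also stood in the principal test.

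Whether the differences between cell types themselves depended on disease was tested with interaction terms over BM libraries of both arms. In the principal test 33 of 39 members were called, against 12.6% of genes, and the fit over genes above background called 23 (14 S-phase and 9 mitotic), against 30.8%. Only 8 and 10 members were above background in all 4 control HSC/MPP and LMPP libraries, against 39 in control LK/CLP. The count of the second fit is therefore a description. The principal count depends on the scaling, with factors of 2.33 to 2.52 for control HSC/MPP and 0.784 to 1.22 for control LK/CLP. Adding the replicate numbers as a block gave 21, against 26.1%. The smallest p-values over genes above background belonged to Mcm5 (adjusted p = 0.000175), Rrm2 (0.000297), Mcm2 (0.000299), Mcm4 (0.000395) and Mcm7 (0.00045). Foxm1, Kif2c, Cdk1, Cenpa, Cenpf and Ube2c were called in neither fit.

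**Figure D3:**
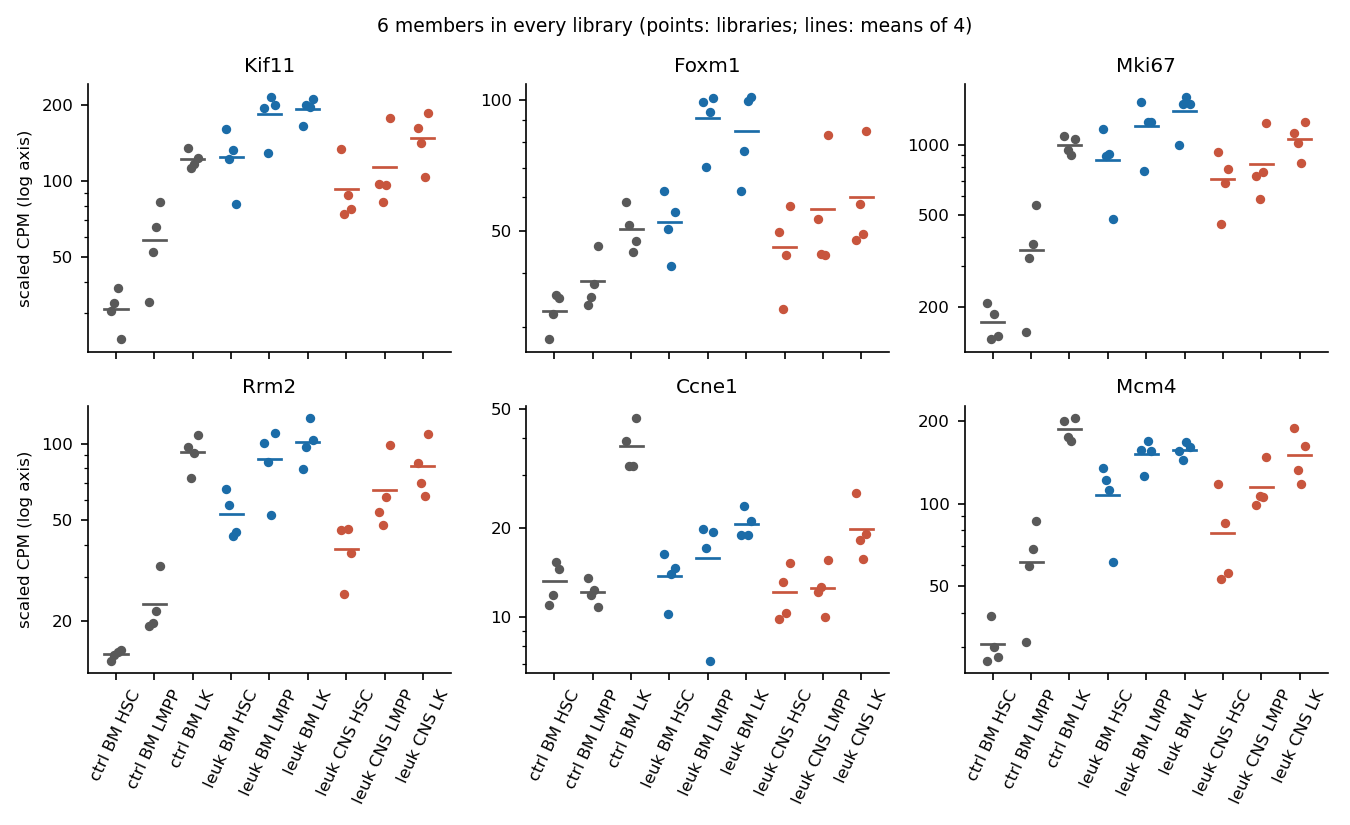
Scaled CPM of Kif11, Foxm1, Mki67, Rrm2, Ccne1 and Mcm4 in every library, by group, on a log axis (points are libraries, lines are means of 4; grey is control BM, blue leukaemia BM, red leukaemia CNS; HSC stands for HSC/MPP and LK for LK/CLP). Rrm2, Mcm4, Mki67 and Kif11 are lowest in control HSC/MPP, while Ccne1 is highest in control LK/CLP, at 32.2 to 46.6, above every leukaemia library.

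Within leukaemia marrow the median folds between cell types were smaller than in the controls. From LK/CLP to HSC/MPP the median fold was -0.49 over the S-phase and -0.60 over the mitotic members over genes above background, against -1.54 and -1.01 in control. No member was called in either fit (19 and 20 at an unadjusted p under 0.05; DESeq2 called 0, against 0.255% of genes), against 0% and 0.0317% of genes. Rrm2 had the smallest p in both, at -0.91 ± 0.25 (adjusted p = 0.142). Between LMPP and LK/CLP the medians were -0.07 and -0.28, and between HSC/MPP and LMPP -0.41 and -0.23. Neither comparison had a called member in either edgeR fit, against 0.00634% and 0.0697% of genes above background, while DESeq2 called 1 in the latter, against 3.03%. Scaled levels of 9 members, 8 of them S-phase, were below LK/CLP in every HSC/MPP library, against 6.15% of genes.

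In the CNS the median fold between HSC/MPP and LK/CLP was larger for the S-phase than for the mitotic members, a difference given without a test. The median folds were -0.74 and -0.45 over genes above background, a difference of -0.29. The principal test called 0 of 40332 genes and 0 members (35 members at an unadjusted p under 0.05), with adjusted p = 0.136 for Rrm2. Over genes above background 11 S-phase members were called lower, against 5.27% of genes, and no mitotic member. They were Rrm2 (-1.04 ± 0.25, adjusted p = 0.0224), Mcm7 (-0.95 ± 0.26), Mcm2 (-0.92 ± 0.24), Mcm4 (-0.92 ± 0.23), Cdt1 (-0.85 ± 0.23), Mcm3, Rrm1, Pcna, Mcm5, E2f1 and Cdc6 (-0.63 ± 0.16, adjusted p = 0.0276). With the replicate numbers as a block, which pair BM and CNS of a mouse but not cell types, 10 members were called lower, 9 S-phase and Ccna2, against 4.09% of genes. In all 4 CNS HSC/MPP libraries 10 of 17 S-phase and 7 of 22 mitotic members were above background, against all 39 in CNS LK/CLP. Background shares were 3.45 to 24.4% and 1.08 to 8.76%. The fourth CNS HSC/MPP library held erythroid markers at 1793 and mature neutrophil markers at 1455 scaled CPM in sum. The part of these in the difference was not tested.

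Rrm2 stood at 45.8, 25.7, 46.2 and 37.0 scaled CPM in CNS HSC/MPP and at 83.8, 70.1, 62.1 and 109 in CNS LK/CLP, without overlap. Ccne1 stood at 9.85, 13.1, 10.3 and 15.2 against 26.1, 18.2, 15.8 and 19.1, also without overlap but with the nearest libraries close. Aurkb, the kinase of the chromosomal passenger complex, stood at 32.7, 28.6, 27.8 and 34.8 against 50.1, 48.0, 38.1 and 61.6, and Ccna2 at 49.1, 32.2, 32.9 and 51.1 against 78.0, 62.3, 53.7 and 91.7. Neither was called without the block although no library of one group entered the range of the other. Kif11 stood at 134, 74.2, 87.7 and 77.4 against 162, 141, 104 and 186, and overlapped. Scaled levels of 14 members, 11 of them S-phase, were below LK/CLP in every HSC/MPP library, against 5.24% of genes.

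These CNS calls rested on few libraries. DESeq2 called 18 members (14 S-phase and 4 mitotic), against 7.33% of genes, relative log expression factors 1, and the fit without the mice of the first CNS HSC/MPP library and the third BM LMPP library 16. In the second fit, leaving out the first CNS HSC/MPP library gave 19 calls, the second or the fourth gave 0, the third gave 7, the first CNS LK/CLP library 1, the fourth 0 and the fourth BM LMPP library 7. In the principal test, without the first CNS HSC/MPP library 35 members were called. That library held microglia and macrophage markers at 2880 scaled CPM in sum, the highest of all, while 0 of 12 such markers were above background in all 4 of its group and none was at 0. Between CNS LMPP and LK/CLP the medians were -0.41 and -0.41, and between CNS HSC/MPP and LMPP -0.40 and -0.04, with 0 members called by edgeR in either fit, against 0.00496% and 0.0595% of all counted genes and 0.380% and 13.1% of those above background. DESeq2 called 0 members in the former, against 0.806% of genes, and 2 in the latter, against 22.1%. Without the first CNS HSC/MPP library 19 members were called in the last comparison in the principal test and 5 over genes above background.

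The niche comparison asks how CNS and BM libraries of the same leukaemia differ. Over the 3 cell types together the CNS level was lower by a median of 0.30 on the log2 scale for the S-phase and 0.34 for the mitotic members. This was small next to the differences of control HSC/MPP and LMPP from control LK/CLP. The principal test called 0 of 40332 genes and 0 members (794 genes and 0 members at an unadjusted p under 0.05; DESeq2 called 0 members, against 0.183% of genes), and the fit over genes above background also called 0 (1487 genes and 23 members at an unadjusted p under 0.05). With the mouse as a block, which the design supports because both libraries come from the same animal, 6 members were called lower in CNS over genes above background, against 0.881% of genes. They were Foxm1 (-0.50 ± 0.10, adjusted p = 0.016), the helicase factor Cdc45 (-0.44 ± 0.09, adjusted p = 0.0178), Kif11 (-0.53 ± 0.11, adjusted p = 0.0187), Cdk1 (-0.36 ± 0.08, adjusted p = 0.035), Cdc6 (-0.33 ± 0.09, adjusted p = 0.0486) and Tpx2 (-0.39 ± 0.10, adjusted p = 0.0496). With the mouse block over all counted genes 0 members were called, against 0.0744% of genes.

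Those 6 calls shifted with the mice included. Leaving out 1 mouse at a time gave 2 to 8 called members, 2 without LK/CLP mouse 3 and 3 without HSC/MPP mouse 1 or 3, LMPP mouse 1 or 3, or LK/CLP mouse 2 or 4. With the block and without both the first HSC/MPP and the third LMPP mouse 0 members were called. In LMPP alone 3 were called with the block, Foxm1 (-0.76 ± 0.17, adjusted p = 0.0308), Cdc6 (-0.64 ± 0.15, adjusted p = 0.0402) and Kif11 (-0.77 ± 0.19, adjusted p = 0.0456), against 0.374% of genes, and 0 without LMPP mouse 1, 2 or 3. It was 1 without HSC/MPP mouse 4 or LK/CLP mouse 2, 3 or 4, which enter only through the shared spread. In HSC/MPP alone and in LK/CLP alone no member was called, and no member was called for a niche difference that depended on cell type, in edgeR or DESeq2. With the block over genes above background the smallest p in HSC/MPP was that of Cdc45 (-0.45, adjusted p = 0.644) and in LK/CLP that of Foxm1 (-0.52, adjusted p = 0.941).

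Kif11 was lower in CNS than in BM in 12 of 12 mice. In HSC/MPP its BM and CNS levels were 160 and 134, 122 and 74.2, 133 and 87.7, and 81.2 and 77.4 scaled CPM in the 4 mice, in LMPP 194 and 97.0, 130 and 82.9, 215 and 96.4, and 200 and 177, and in LK/CLP 165 and 162, 199 and 141, 197 and 104, and 211 and 186. The size ran from -0.02 in the first LK/CLP mouse to -1.15 in the third LMPP mouse. The latter mouse gave the BM library of lowest total, with 271 counts of Kif11. In its pair the median over all genes above background was itself 0.32. Foxm1 stood in BM at 61.9, 50.6, 41.6 and 55.3 in HSC/MPP, 99.0, 70.04, 93.8 and 101 in LMPP and 61.9, 76.4, 99.6 and 102 in LK/CLP. In CNS of the same mice it stood at 49.7, 33.0, 43.9 and 57.0, at 53.1, 44.2, 44.0 and 83.3, and at 47.7, 57.5, 49.1 and 85.0, lower in 10 of 12 mice. The exceptions were HSC/MPP mice 3 and 4.

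Cdc45 was lower in CNS in 11 of 12 mice, at 38.8, 35.2, 28.8 and 36.7 in BM and 25.1, 27.7, 26.7 and 22.9 in CNS for HSC/MPP. Its LMPP levels were 56.3, 34.2, 35.8 and 46.9 against 33.2, 20.6, 24.5 and 38.0, and its LK/CLP levels 38.9, 44.3, 59.6 and 48.7 against 39.6, 40.7, 35.6 and 43.5, where the first mouse was the exception. Cdc6 was lower in 10 of 12 mice, with the first and second LK/CLP mice higher in CNS (46.9 and 56.4, 44.7 and 49.0). Cdc20, which activates the anaphase complex, was lower in 9 of 12 mice and was not called (-0.45 ± 0.15 with the block, adjusted p = 0.14). Its HSC/MPP levels were 35.2, 30.0, 56.2 and 23.98 in BM and 25.9, 16.9, 21.3 and 33.2 in CNS.

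Over the 12 mice, 22 members (7 S-phase and 15 mitotic) were lower in CNS in at least 9, against 8.44% of genes, and 15 (4 and 11) in at least 10, against 3.55%. In at least 11 mice 7 members were lower, against 1.26% of genes: Cdc45, Cdk1, Bub1b, Aurkb, Tpx2, Cenpf and Kif11. Only Kif11 was lower in all 12, against 0.210%. The median S-phase member was lower in CNS in 8 of 12 mice and the median mitotic member in 10. All 39 members were lower in the first LMPP mouse (medians -0.77 and -0.89) and in the third LK/CLP mouse (-0.50 and -0.83). In the fourth HSC/MPP mouse only 13 were lower (0.05 and 0.20), and in the first LK/CLP mouse 11 (0.24 and 0.05). Background shares in BM and CNS were 26.8% and 15.2% in the former mouse, and 8.54% and 1.09% in the latter. With background subtracted their medians were -0.03 and 0.14, and 0.08 and -0.07. The S-phase median of the fourth LMPP mouse went from 0.03 to -0.11, so the 8 and 10 mice above change with the subtraction. In the first LMPP mouse mature neutrophil markers summed to 4565 scaled CPM in BM and 37.9 in CNS. Background shares there were 2.16% and 8.58%. In the third LK/CLP mouse these markers summed to 12178 and 1782, with background shares of 3.81% and 8.37%. In the second LMPP mouse they summed to 12.3 and 31.9, with 33 members lower. Their part in these differences was not tested.

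Between the niches the S-phase median exceeded the mitotic one in 4 of 4 LK/CLP mice, by 0.11 to 0.33, in 2 of 4 LMPP mice (-0.17 to 0.12) and in 1 of 4 HSC/MPP mice (-0.48 to 0.09). This was not tested, since a score over chosen members is given here without a p. The largest S-phase difference, -1.01 in the second HSC/MPP mouse, went with a background share of 9.04% in BM and 24.4% in CNS, and it was -0.46 after background was subtracted from each count.

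**Figure D4:**
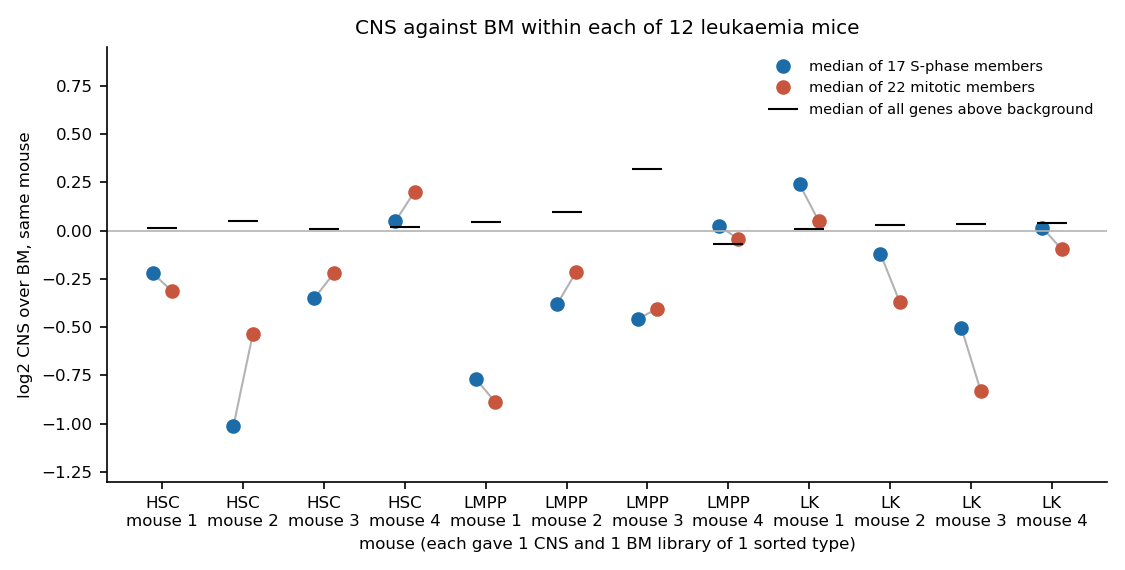
Median log2 ratio of CNS over BM in each of 12 leukaemia mice, for the 17 S-phase members (blue) and the 22 mitotic members (red), with the median of all genes above background as a black line (HSC stands for HSC/MPP and LK for LK/CLP). Without background subtraction, S-phase medians lie below 0 in 8 mice and mitotic medians in 10, and in each of the 4 LK/CLP mice the S-phase point is above the mitotic point.

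Some genes of the pathway outside the 39 were called lower in CNS with the mouse as a block over genes above background, where 0.881% of all genes were. Of 30 other replication genes, Pole (-0.43 ± 0.09, adjusted p = 0.0202) and Rfc5 (-0.34 ± 0.08, adjusted p = 0.0302) fell. Of 33 other mitotic genes 5 fell, led by Ncapd2 (-0.48 ± 0.11), Anln (-0.45 ± 0.11) and Dlgap5 (-0.42 ± 0.10). Of 13 E2F and pocket protein genes 3 fell, E2f8 (-0.45 ± 0.09), the B-Myb gene Mybl2 (-0.44 ± 0.10) and Rbl1 (-0.37 ± 0.08). Cdkn1a, the p21 inhibitor of cyclin-dependent kinases, was higher in CNS (0.51 ± 0.12, adjusted p = 0.0378), as was Btg2 of the p53 target list (0.80 ± 0.17, adjusted p = 0.022). None of these was called in the principal test. Markers of other cells differed between the niches in some cell types and not in others. Mature neutrophil markers had medians of 1220 scaled CPM in BM and 109 in CNS for HSC/MPP, and of 5474 and 893 for LK/CLP. For LMPP their medians were 28.6 and 26.7, although the first BM LMPP library held 4565. Microglia and macrophage markers had medians of 127 in BM and 302 in CNS for HSC/MPP, of 85.3 and 348 for LMPP, and of 101 and 108 for LK/CLP. In LMPP, the one cell type with niche calls of its own, they ranged from 46.9 to 104 in BM and from 75.9 to 578 in CNS, with 3 and 5 of 12 above background in all 4 libraries and none at 0. Immediate early genes, which respond to handling and signals, had medians of 179 and 392, 159 and 477, and 149 and 223 in HSC/MPP, LMPP and LK/CLP. Their part in the differences between niches was not tested.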

How the data were processed

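The values are counts per gene, whole numbers that sum to a different total in each library, in a leukaemia table of 24 libraries and a control table of 12, as deposited by the authors. The file names call them normalised, but no scaling was found in them. RNA was extracted with the Quick-RNA Microprep Kit and libraries were made with a SMARTer Stranded kit for total RNA (v3, Pico), per the labels' protocols. The submitters' processing notes name DESeq2 and the build GRCm39; the counter, its annotation and its strand setting are not known here, so reads of overlapping or antisense genes cannot be told apart. Symbols (52081 of 55414 identifiers) and exon lengths came from GENCODE M21 on GRCm38.

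The members and lists were chosen with earlier results of these data known. Counts were tested with edgeR 4.0.16 (quasi-likelihood, TMM, a filter of 10 counts in 4 or more libraries, Benjamini-Hochberg over all genes, R 4.3.3), with all libraries of a table sharing one estimate of the spread, and with the 24 BM libraries of both tables for disease. Background per kb came from 1794 sensory receptor genes. A gene was above background where 4 or more libraries had counts over 10 plus 3 times what background gives at its length. Levels on the log2 scale added 0.5 to the scaled CPM. Alternatives were the replicate block, relative log expression factors, no filter, only the groups compared, DESeq2 1.42.0, background subtraction and each library left out. The test script was tested on simulated data. All 39 members may be named; folds were named for at most 10 called members by size, and values per library for Kif11 and the 2 S-phase and 2 mitotic members of smallest p in the principal test; of other lists, up to 3 called genes by size. Libraries of 1 group came from different mice, and no pair of them was a duplicate. Same-mouse libraries pair by design: over genes, the deviations of CNS and BM libraries correlated with a median of 0.23 (-0.46 to 0.73, 12 mice), and those of the control cell types with a median of 0.03 (-0.36 to 0.16). Sequences came from RefSeq (GRCm38.p6), not the build of the counts.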

Additional observations from a re-analysis of the deposited data

Results flagged for a closer look

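Of 126 sets of 4 libraries examined, 5 held a library far from the others, and chance alone gives about 1 in 20. The fourth CNS LMPP library was the highest of its group for the mean log2 level of the S-phase members (6.55, next 5.87), for Kif11 (177 scaled CPM, next 97.0), for Mcm4 (148, next 107) and for Mcm5 (206, next 141). In the second BM LMPP library Bub1 was lowest, at 19.7 scaled CPM, with the next at 31.0.

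The differences between BM cell types were called as depending on disease for 33 of 39 members in the principal edgeR test of that difference, against 12.6% of genes, and for 23 over genes above background, against 30.8%. The principal count depends on the scaling. The count over genes above background is a description, because few members were above background in control HSC/MPP and LMPP.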

How the results depend on the processing

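The principal test moved the median of genes above background by up to 1.51 on the log2 scale, and members near background (Gins2, Ccne2 and Bub1 in control HSC/MPP) are limited by it. Of 991 counts of called members under alternatives 866 stayed within 1.5 times, of 900 differences between the phases 884 stayed within the spread, and of 8400 fold changes of single members 86 reversed. The cause was not tested in any of these.

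Over genes above background, with the replicate block and then in brackets without it, members called were 6 (0) for CNS against BM, 3 (0) for LMPP alone, 10 (11) for HSC/MPP against LK/CLP in CNS, 3 (7) for HSC/MPP against LMPP in control, 3 (5) for disease in LK/CLP and 21 (23) for the dependence on disease. The block changed the call of 0 members in CNS against BM over all counted genes. DESeq2 called 1 for HSC/MPP against LMPP in leukaemia BM, 18 for HSC/MPP against LK/CLP and 2 for HSC/MPP against LMPP in CNS, 3 for HSC/MPP against LMPP in control and 2 for disease in LK/CLP. Relative log expression factors called 1 for HSC/MPP against LK/CLP in CNS and 2 for disease in LK/CLP, no filter called 1 for HSC/MPP against LMPP in control, and only the groups compared called 3 for disease in LK/CLP. Without the mice of the first CNS HSC/MPP library and the third BM LMPP library, an alternative chosen after seeing the data, CNS gave 16 for HSC/MPP against LK/CLP and 4 for HSC/MPP against LMPP.

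The S-phase minus mitotic difference became -0.42 (replicate block) and -0.50 (without those mice) for HSC/MPP against LMPP in CNS, and -0.39 (means) and -0.29 (background subtracted) for HSC/MPP against LK/CLP in control. With background subtracted it was 0.035 for HSC/MPP against LMPP in control and -0.10 for disease in HSC/MPP. Subtraction moved the S-phase level to 6.19 in BM LMPP, 6.35 in BM LK/CLP and 4.56 in control HSC/MPP, and the mitotic level there to 4.55.

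Over genes above background, without and with the replicate block, Kif2c turned to 0.30 and 0.29 (HSC/MPP against LK/CLP) and to 0.10 and 0.094 (LMPP against LK/CLP) in control, and to -0.55 and -0.59 for disease in LMPP, where relative log expression factors gave -0.22 and DESeq2 -0.22. Ccne1 turned to -0.040 and -0.059 for disease in HSC/MPP.

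Leaving out each library or mouse in turn, over all fits, called 0 to 8 members for CNS against BM, 0 to 4 in LMPP, 0 to 35 for HSC/MPP against LK/CLP, 0 to 3 for LMPP against LK/CLP and 0 to 19 for HSC/MPP against LMPP in CNS, 0 to 16 for HSC/MPP against LMPP in control, 0 to 6 for disease in LK/CLP and 19 to 38 for the dependence on disease. The phase difference ran from -0.62 to -0.50 (HSC/MPP against LK/CLP) and -0.54 to -0.39 (LMPP against LK/CLP) in control, from -0.49 to -0.083 for HSC/MPP against LMPP in CNS and from -0.037 to 0.40 for disease in HSC/MPP. Single members that reversed ran, in control HSC/MPP against LK/CLP, from -1.46 to 0.37 (Kif2c), in control LMPP against LK/CLP from -1.51 to 0.20 (Kif2c), -1.74 to 0.024 (Foxm1), -1.82 to 0.027 (Tyms) and -1.79 to 0.030 (Cenpf), for disease in HSC/MPP from -0.13 to 1.34 (Ccne1), for disease in LMPP from -0.78 to 1.37 (Kif2c), -0.027 to 2.04 (Cdk1), -0.073 to 2.04 (Cenpa) and -0.070 to 2.03 (Ccnb1), and for disease in LK/CLP from -0.52 to 0.018 (Cdc6). Depth limits the third BM LMPP library, at 1909638 counts.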
